A study of Mus musculus with 6 samples.

Results

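The genes described here carry out the secretion of IgA in the colon and form the program of the B and plasma cells that make it. They were taken as the rows of the deposited table with the symbols Pigr, Jchain, Mzb1, Derl3, Prdm1, Irf4, Pou2af1, Cd79a, Cd79b and Ms4a1, 10 of 27546 genes. All 10 were in the table and passed the filter for testing, a mean of at least 0.5 FPKM (fragments scaled to gene length and library depth) over the 6 libraries. For Derl3, Irf4 and Ms4a1 the WT mean was under 0.5, so these 3 genes passed only through their level in the Gm31629-/- mice.

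RNA-Seq was done on colon tissue, dissected as distal colon, of 3 Gm31629-/- mice and 3 WT littermates, labelled as C57BL/6 and named C57BL/6J in the methods. Gm31629 is a long noncoding RNA, and in the knockout mice its sequence on chromosome 1 was targeted in the germline. Mice of both genotypes were 8 weeks old and drank 3% dextran sulfate sodium (DSS), which injures the colonic epithelium, for 7 days before sacrifice on day 8. Every value is therefore from injured colon, with no untreated mice. The methods speak of RNA pooled from 3 mice of each genotype, whereas the table has a column for each of 3 samples per genotype. The columns were treated as separate mice, and if they were not, the p-values measure only the spread between libraries.

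IgA is the main antibody at mucosal surfaces. Plasma cells under the epithelium release it as polymers held together by the joining chain, the product of Jchain. The polymeric immunoglobulin receptor, the product of Pigr, is made by epithelial cells, binds the polymer at their basolateral side, carries it across the cell and is cut at the lumen, so that IgA leaves with the receptor's outer part attached. In bulk tissue, fewer cells of a type and less RNA per cell cannot be told apart.

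The genes of the antibody-making cells were higher in the Gm31629-/- mice and the epithelial receptor was not. Of the 9 B and plasma cell genes, 8 were called higher (limma, log2 fold change over 1 with a Benjamini-Hochberg adjusted p below 0.05), and none was called lower. Of those 8, Derl3, Irf4 and Ms4a1 had passed the filter only through the Gm31629-/- mice. That leaves 5 calls among the 7 of the 10 genes, Pigr included, with a WT mean of at least 0.5 FPKM. Pigr was not called in either direction. Among all 14657 tested genes, 18.4% were called higher and 4.64% were called lower. At an adjusted p under 0.05 alone, 9 of the 10 genes passed, against 43.5% of all tested genes. The 9 B and plasma cell genes were each higher in every Gm31629-/- mouse than in any WT mouse, which was so for 36.3% of all tested genes. Their median log2 fold change was 2.62, beside 0.15 over all tested genes, both on the log2(FPKM + 1) scale used throughout. The lack of overlap and this median both include Derl3, Irf4 and Ms4a1, which were tested only because of their level in the Gm31629-/- mice. With libraries rescaled to 15 epithelial marker genes, the calls over all tested genes were 4529 higher and 247 lower, in place of 2704 and 680.

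**Figure D1:**
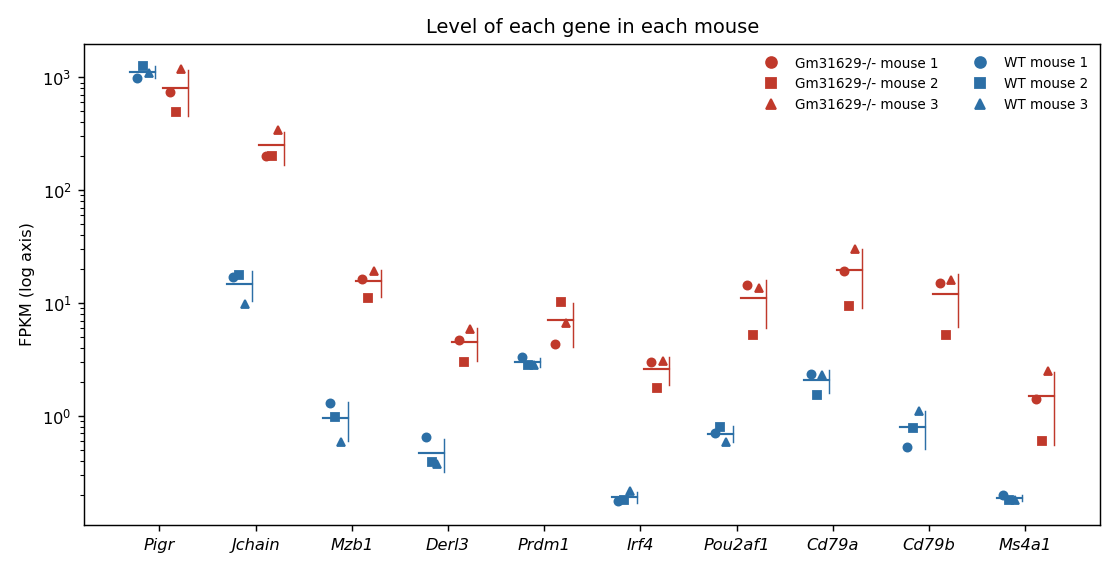
FPKM of the 10 genes in each mouse on a log axis, with WT mice in blue and Gm31629-/- mice in red, horizontal bars at the group mean and vertical bars of 1 SD on either side (n = 3). The groups overlap for Pigr alone, which lies between 494 and 1264 FPKM in the 6 mice.

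The tissue was checked against marker genes before these values were read. Epcam, an epithelial adhesion protein, was at 1179, 990 and 1158 FPKM in Gm31629-/- mice 1 to 3 and at 1141, 1164 and 1007 FPKM in WT mice 1 to 3, so epithelium was present in every library. Summed over 15 epithelial markers the level was 8224 to 9709 FPKM in Gm31629-/- mice and 13112 to 14392 FPKM in WT mice, with 4 of the 15 called lower (Krt8, Krt19, Cdx2 and Phgr1) and none at 0. Smooth muscle markers moved much further. Their 12 genes summed to 1604 to 2618 FPKM in Gm31629-/- mice and to 28.3 to 54.3 FPKM in WT mice, and 11 of the 12 were called higher. All 6 tested markers of lymphoid follicle stroma were called higher, and the list summed to 316 to 353 FPKM against 9.81 to 18.8 FPKM. Cxcl13, the chemokine that draws B cells into follicles, was at 90.1, 102 and 91.0 FPKM in Gm31629-/- mice and 1.97, 1.21 and 1.48 FPKM in WT mice. These lists moved with the B and plasma cell genes, and their part in those differences was not tested. Beside these marker calls, 18.4% of all tested genes were called higher and 4.64% lower. In Gm31629-/- mouse 1 the summed FPKM of 4 Y-linked genes exceeded that of Xist, and in the other 5 libraries all 4 were at 0, although the methods describe male mice. Without that mouse 8 of the 10 genes were called higher, with Prdm1 gained at a log2 fold change of 1.22 and Ms4a1 lost at 0.997. The estimated depth was 18006000 to 18795200 mapped fragments per library.

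Sequence upstream of the genes was examined because the B and plasma cell genes moved together and the receptor did not. RefSeq promoters (build GRCm38.p6, 250 bases before to 50 after the start) were matched for 7 of the 10 genes, namely Pigr, Jchain, Derl3, Prdm1, Irf4, Pou2af1 and Cd79a. They were searched on both strands for 5 motifs: the octamer ATGCAAAT bound by OCT2 with the Pou2af1 product, the E-box CACGTG, the endoplasmic reticulum stress element CCAATN9CCACG, the unfolded protein response element TGACGTGG bound by XBP1, and the interferon regulatory repeat of GAAA, any 2 bases and GAAA. The promoters of the receptor, of the joining chain and of the 2 plasma cell genes with a stress-type match are shown, read 5′ to 3′ on the strand of the gene, with capitals for the matches.

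Pigr, chr1:130826434-130826733, plus strand: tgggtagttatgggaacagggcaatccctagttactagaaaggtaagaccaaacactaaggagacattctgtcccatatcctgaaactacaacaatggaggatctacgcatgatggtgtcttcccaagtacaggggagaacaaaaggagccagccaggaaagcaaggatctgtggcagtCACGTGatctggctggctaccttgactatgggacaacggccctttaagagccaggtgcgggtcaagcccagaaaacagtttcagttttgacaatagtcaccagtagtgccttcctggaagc
Jchain, chr5:88527848-88528147, minus strand: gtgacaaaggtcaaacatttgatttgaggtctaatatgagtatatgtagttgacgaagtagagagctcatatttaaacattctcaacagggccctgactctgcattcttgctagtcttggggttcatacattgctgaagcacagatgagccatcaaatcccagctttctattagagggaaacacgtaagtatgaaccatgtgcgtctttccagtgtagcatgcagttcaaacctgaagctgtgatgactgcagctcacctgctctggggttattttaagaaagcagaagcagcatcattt
Derl3, chr10:75893148-75893447, plus strand: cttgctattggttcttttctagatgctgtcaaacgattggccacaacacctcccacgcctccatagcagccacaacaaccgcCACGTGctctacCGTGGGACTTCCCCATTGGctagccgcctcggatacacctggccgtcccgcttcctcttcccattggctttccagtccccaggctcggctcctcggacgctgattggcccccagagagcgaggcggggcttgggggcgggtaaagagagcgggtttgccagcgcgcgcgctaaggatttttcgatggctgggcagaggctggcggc
Pou2af1, chr9:51213440-51213739, plus strand: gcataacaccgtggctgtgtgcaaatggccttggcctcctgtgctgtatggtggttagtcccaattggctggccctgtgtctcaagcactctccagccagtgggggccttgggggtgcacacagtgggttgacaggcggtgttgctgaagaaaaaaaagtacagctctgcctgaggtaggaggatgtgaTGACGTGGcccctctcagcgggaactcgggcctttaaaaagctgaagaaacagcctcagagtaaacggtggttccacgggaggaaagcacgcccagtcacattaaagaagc

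The Pigr promoter held an E-box beginning 71 bases before the start, and the Derl3 promoter held an E-box at 168 bases before it, a motif found in 7.15% of 32851 promoters of the same length. Derl3 also held the stress element, beginning 156 bases before the start, which 0.119% of all promoters hold. Pou2af1 held the unfolded protein response element at 61 bases before the start, present in 0.676% of promoters. None of these matches overlapped another. The octamer, in 1.74% of all promoters, and the interferon regulatory repeat, in 3.44%, had no match among the 7. These matches are descriptions of letters in a window, and binding was not measured.

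Pigr was among the most abundant transcripts of the colon in both genotypes. The gene lies on chromosome 1 at 130826684 to 130852249, plus strand, and ranked 41 of 27546 genes by mean FPKM in Gm31629-/- mice and 25 in WT mice. It was measured at 747, 494 and 1187 FPKM in Gm31629-/- mice 1 to 3 and at 997, 1264 and 1085 FPKM in WT mice 1 to 3. The Gm31629-/- values spread widely, with mice 1 and 2 below and mouse 3 within the WT range. The means were 809 ± 351 FPKM and 1115 ± 136 FPKM (SD, n = 3 each), a log2 fold change of -0.55 (SE 0.32, 95% interval -1.30 to 0.21, limma adjusted p = 0.202). At 36659 to 91632 fragments per library, counting error was small beside the spread between mice.

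The distance of Pigr from the p threshold depended on single mice. Without Gm31629-/- mouse 3 the log2 fold change was -0.87 with a limma adjusted p of 0.0352, past the p threshold but not the fold threshold, so that Pigr was still not called, and without mouse 2 it was -0.24 with an adjusted p of 0.444. Rescaled to the 15 epithelial markers it was 0.07 with an adjusted p of 0.852. Set against the geometric mean of those markers in the same library, Pigr stood at 1.95, 1.38 and 3.08 in Gm31629-/- mice and at 1.70, 2.06 and 2.03 in WT mice. The groups overlapped, and the log2 difference of 0.07 was within the spread between mice (exact permutation test, two-sided p = 0.9). Against Epcam the ratio was 0.634, 0.498 and 1.03 in Gm31629-/- mice and 0.873, 1.09 and 1.08 in WT mice, a log2 difference of -0.55 (exact permutation test, two-sided p = 0.2).

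Jchain was the most abundant of the other 9 genes and had the largest log2 fold change of the 10. The joining chain links IgA and IgM into the polymers that the receptor binds. Jchain (chromosome 5, 88519809 to 88527891, minus strand) was at 202, 203 and 343 FPKM in Gm31629-/- mice and at 16.9, 17.6 and 9.83 FPKM in WT mice. Every Gm31629-/- mouse was over 10 times as high as any WT mouse. The means were 249 ± 81.0 FPKM and 14.8 ± 4.31 FPKM (SD, n = 3 each), a ratio of 16.9, and the log2 fold change was 3.98 (SE 0.29, limma adjusted p = 0.000242). By mean FPKM, Jchain ranked 163 in Gm31629-/- mice and 3382 in WT mice.

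The receptor and the chain it binds thus stood in different proportion in the 2 genotypes. For each Jchain unit of FPKM, Pigr stood at 3.70, 2.43 and 3.46 in Gm31629-/- mice and at 58.9, 71.8 and 110 in WT mice. The groups were far apart, with a log2 difference of -4.62, or 24.7-fold. This ratio is taken within a library and does not change with the scaling of libraries. The exact permutation test over 3 against 3 mice gave a two-sided p of 0.1, the smallest it can give, and 0.429 after Benjamini-Hochberg adjustment over the 10 ratios computed.

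**Figure D2:**
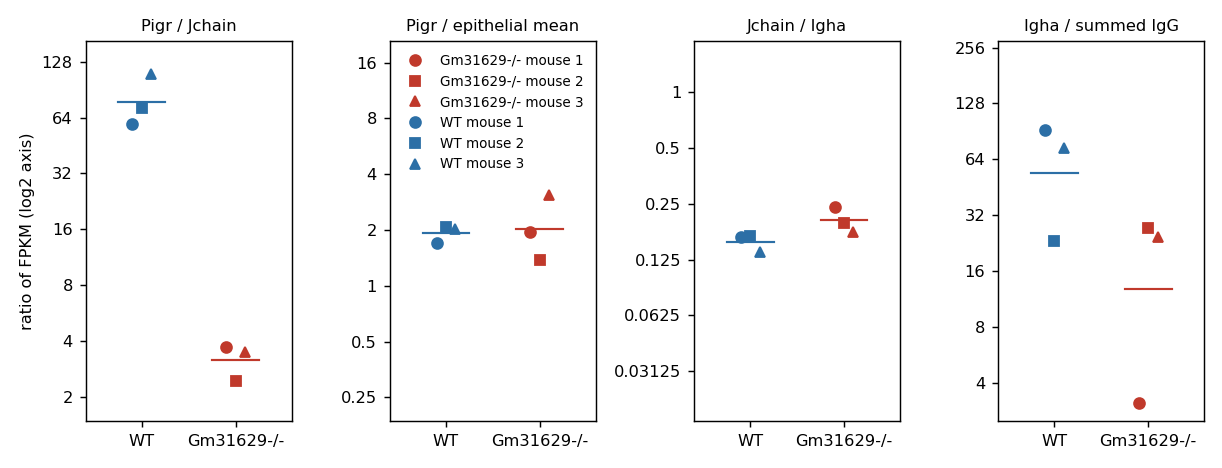
Ratios of FPKM within each library on log2 axes of equal span, with horizontal bars at the geometric mean of 3 mice. Pigr over Jchain separates the genotypes by 24.7-fold, Pigr over the geometric mean of 15 epithelial markers does not, Jchain over Igha lies between 0.137 and 0.242, and Igha over summed IgG is lowest in Gm31629-/- mouse 1 at 3.10.

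Mzb1 and Derl3 act in the endoplasmic reticulum of secreting cells. Mzb1 assists the assembly of antibody chains. It was at 16.4, 11.1 and 19.3 FPKM in Gm31629-/- mice and at 1.31, 0.982 and 0.588 FPKM in WT mice, a ratio of means of 16.2 and a log2 fold change of 3.06 (SE 0.24, limma adjusted p = 0.000315). The lowest Gm31629-/- value was well above the highest WT value. Derl3, part of the machinery that removes misfolded proteins, was at 4.72, 2.99 and 5.95 FPKM against 0.651, 0.390 and 0.374 FPKM. Its log2 fold change was 1.88 (SE 0.23, limma adjusted p = 0.00123), and its ratio of means was 9.66. The WT values of Derl3 rested on 14 to 24 fragments per library.

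Prdm1, Irf4 and Pou2af1 encode the regulators of the step from B cell to plasma cell. Irf4 was at 2.98, 1.78 and 3.04 FPKM in Gm31629-/- mice and at 0.176, 0.181 and 0.217 FPKM in WT mice, a log2 fold change of 1.58 (SE 0.19, limma adjusted p = 0.00114). Its ratio of means was 13.6, and the WT values rested on 16 to 20 fragments. Pou2af1, the coactivator of the octamer-binding factors, was at 14.3, 5.19 and 13.7 FPKM against 0.700, 0.806 and 0.584 FPKM, with a log2 fold change of 2.72 (SE 0.35, limma adjusted p = 0.00142). Both genes were separated between genotypes, with mouse 2 the lowest of the Gm31629-/- mice.

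Prdm1 differed from the rest of the set. It encodes BLIMP1, the repressor that ends the B cell program, which T cells, macrophages and epithelial cells can also express. It was at 4.34, 10.3 and 6.70 FPKM in Gm31629-/- mice and at 3.31, 2.84 and 2.83 FPKM in WT mice. Mouse 2, lowest for 8 of the 10 genes among the Gm31629-/- mice, was the highest for Prdm1. The log2 fold change was 0.96 (SE 0.27, limma adjusted p = 0.0263), under the fold threshold, and the ratio of means was 2.37. The adjusted p was 0.0632 without Gm31629-/- mouse 3 and 0.0623, 0.0755 and 0.0883 without WT mouse 1, 2 or 3, and without Gm31629-/- mouse 1 the gene was called, at 1.22. Of the T cell markers, 4 of 9 tested were called higher, beside 18.4% of all tested genes. The list of 10 summed to 18.7 to 32.8 FPKM in Gm31629-/- mice against 6.50 to 10.5 FPKM in WT mice. All 10 markers of neutrophils and macrophages were called higher, summing to 335 to 698 FPKM against 31.3 to 39.2 FPKM. The part of these cells in the Prdm1 and Irf4 values was not tested.

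Cd79a, Cd79b and Ms4a1 mark the B cell surface. Cd79a and Cd79b encode the signalling chains of the B cell receptor. Cd79a was at 19.2, 9.37 and 30.4 FPKM in Gm31629-/- mice and at 2.37, 1.52 and 2.30 FPKM in WT mice, a log2 fold change of 2.62 (SE 0.38, limma adjusted p = 0.00226). Cd79b was at 14.96, 5.19 and 16.2 FPKM against 0.529, 0.776 and 1.12 FPKM, a log2 fold change of 2.74 (SE 0.39, limma adjusted p = 0.00210). Their ratios of means were 9.52 and 15.004, and in both the Gm31629-/- mice spread about 3-fold from mouse 2 to mouse 3.

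Ms4a1, which encodes CD20 and is lost from mature plasma cells, was the least abundant of the 10 genes. It was at 1.41, 0.604 and 2.499 FPKM in Gm31629-/- mice and at 0.201, 0.180 and 0.181 FPKM in WT mice, on 20 to 23 fragments per WT library. The groups did not overlap, and the log2 fold change was 1.00 (SE 0.28, limma adjusted p = 0.0238), just past the fold threshold. The ratio of means of 8.04 shows how far the added 1 FPKM shrinks the change of so low a gene. Its adjusted p was 0.0678, 0.0656 and 0.0783 without WT mouse 1, 2 or 3, and its log2 fold change was 0.73 without Gm31629-/- mouse 3 and 1.29 without mouse 2. The call held in 1 of the 6 fits that leave out a mouse. The other 7 called genes were called in all 6 of those fits.

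**Figure D3:**
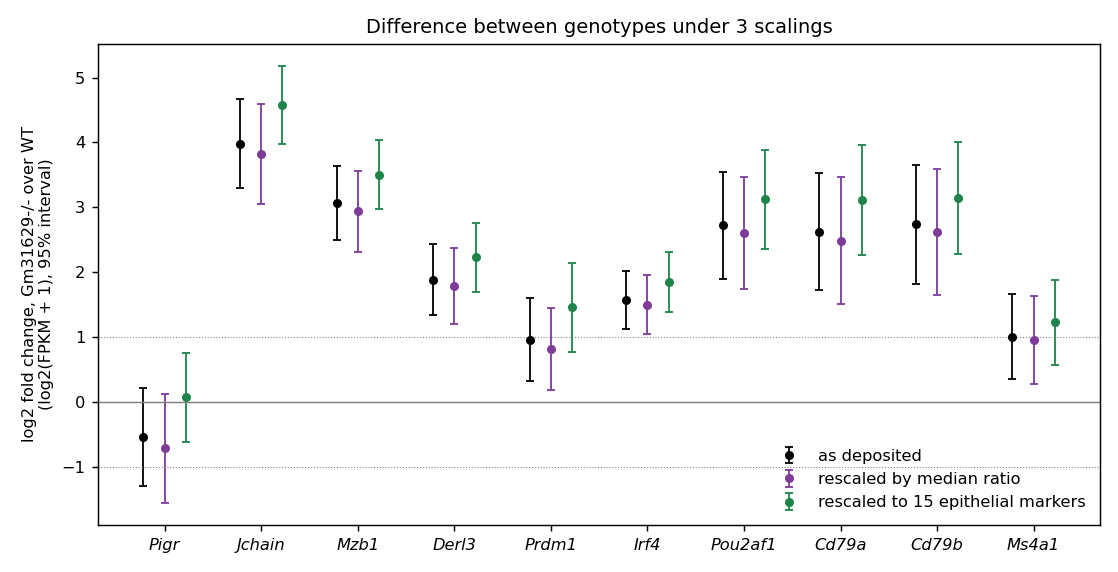
Log2 fold change of each gene, Gm31629-/- over WT, with its 95% interval, for FPKM as deposited (black), after rescaling by the median ratio (purple) and after rescaling to 15 epithelial markers (green), with dotted lines at the fold threshold. The 9 B and plasma cell genes lie above 0 under all 3 scalings, and Pigr goes from -0.55 as deposited and -0.72 by median ratio to 0.07 on the epithelial scale.

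Plasma cell and B cell genes varied together only in part among the Gm31629-/- mice. Mouse 3 was the highest for 8 of the 10 genes, Prdm1 was highest in mouse 2 and Pou2af1 in mouse 1. Jchain per unit of Cd79a was 10.5, 21.7 and 11.3 in Gm31629-/- mice and 7.13, 11.5 and 4.27 in WT mice. These ranges overlapped (exact permutation test, two-sided p = 0.3). Ptprc, which encodes the leukocyte surface protein CD45, rose from 0.410, 0.273 and 0.163 FPKM in WT mice to 3.06, 4.58 and 2.54 FPKM in Gm31629-/- mice (log2 fold change 1.75, limma adjusted p = 0.00110). Jchain per unit of Ptprc was 66.1, 44.3 and 135 in Gm31629-/- mice and 41.2, 64.5 and 60.4 in WT mice (exact permutation test, two-sided p = 0.4). Cd79a per unit of Ptprc was 6.28, 2.04 and 12.0 against 5.79, 5.59 and 14.1 (exact permutation test, two-sided p = 0.6). Against this general leukocyte gene, neither ratio separated the genotypes. Ptprc was under 0.5 FPKM in every WT mouse, so the WT ratios rest on a low denominator. The permutation test over 3 against 3 mice cannot give a p under 0.1, so it cannot show that the ratios are equal.

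The antibody chains themselves were higher in the Gm31629-/- mice. Of 11 tested immunoglobulin constant genes, 9 were called higher, 4 of them with a WT mean under 0.5 FPKM, and none was called lower. Over all tested genes 18.4% were called higher and 4.64% lower. The median log2 fold change of the 11 constant genes was 3.35. Igha, the IgA heavy chain, was at 835, 1024 and 1947 FPKM in Gm31629-/- mice and at 103, 105 and 71.6 FPKM in WT mice, a ratio of means of 13.6 and a log2 fold change of 3.68 (SE 0.33, limma adjusted p = 0.000443). Igkc, the kappa light chain, was at 2581, 1856 and 3594 FPKM against 207, 234 and 153 FPKM, with a log2 fold change of 3.72 (SE 0.29, limma adjusted p = 0.000282). Both were far apart between genotypes. Jchain per unit of Igha was 0.242, 0.198 and 0.176 in Gm31629-/- mice and 0.165, 0.168 and 0.137 in WT mice, a log2 difference of 0.38 with no overlap (exact permutation test, two-sided p = 0.1, the smallest possible).

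**Figure D4:**
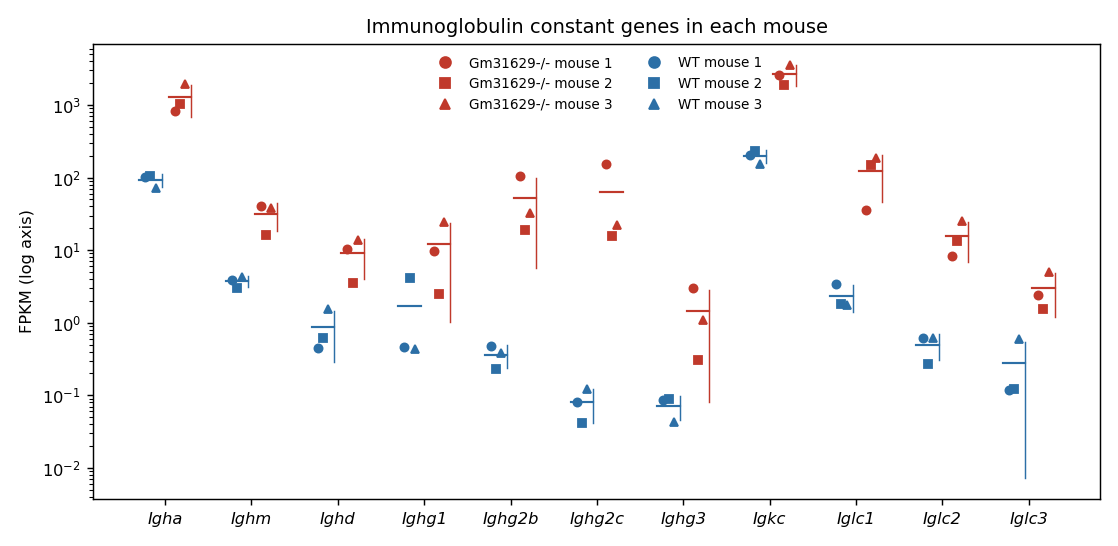
FPKM of 11 immunoglobulin constant genes in each mouse on a log axis, with bars at the group mean and vertical bars of 1 SD, drawn where the SD is smaller than the mean (n = 3). Igha and Igkc are the highest in every mouse, and Ighg2b and Ighg2c are highest in Gm31629-/- mouse 1.

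IgA made up most heavy-chain constant FPKM in both genotypes. Its share of the summed heavy-chain constant FPKM was 72.3%, 94.6% and 93.6% in Gm31629-/- mice and 94.97%, 92.6% and 91.4% in WT mice. Gm31629-/- mouse 1 stood apart, with 23.3% IgG against 3.46% and 3.85% in mice 2 and 3 and 1.03%, 3.998% and 1.24% in WT mice. That mouse had 105 FPKM of Ighg2b and 152 FPKM of Ighg2c, where mice 2 and 3 had 18.9 and 32.1 FPKM of Ighg2b and 15.8 and 22.5 FPKM of Ighg2c. In WT mice Ighg2c rested on 2, 1 and 3 fragments, so no ratio is given for it, and its log2 fold change was 5.18 (SE 0.75, limma adjusted p = 0.00218). The ratio of Igha to summed IgG overlapped between genotypes (exact permutation test, two-sided p = 0.3). Ighg1 overlapped as well, at 9.69, 2.49 and 24.4 FPKM against 0.459, 4.18 and 0.431 FPKM (limma adjusted p = 0.0599).

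The light chains also differed between mice. Iglc1, a lambda chain, was at 35.9, 150 and 187 FPKM in Gm31629-/- mice and at 3.45, 1.83 and 1.76 FPKM in WT mice, a log2 fold change of 4.96 (SE 0.59, limma adjusted p = 0.00105). Igkc per unit of summed Iglc was 55.4, 11.2 and 16.5 against 49.5, 105 and 51.8, overlapping through Gm31629-/- mouse 1 (exact permutation test, two-sided p = 0.3). Ighg2b and Ighg2c are related in sequence, as are Iglc1, Iglc2 and Iglc3. How the counting treated reads that match more than 1 of them is not known, so the single values of these genes are uncertain.

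Most other B cell genes were higher too. Of 15 tested from a list of 20, 12 were called higher and none lower, beside 18.4% and 4.64% of all tested genes. Of the 12, 10 had a WT mean under 0.5 FPKM and so passed the filter only through the Gm31629-/- mice, which leaves 2 called among the 3 other tested genes. Cd37, a B cell tetraspanin, had a log2 fold change of 2.02 (limma adjusted p = 0.00163). Spib, a transcription factor of B cells and of M cells over follicles, had 1.27 (limma adjusted p = 0.00783). Blnk, an adaptor of B cell receptor signalling, went against the list at 21.7, 25.2 and 23.0 FPKM against 35.5, 41.2 and 33.9 FPKM, a log2 fold change of -0.64 that was under the fold threshold (limma adjusted p = 0.0107).

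A list of plasma cell and general secretory genes outside the 9 did not move as a group. Of 13 tested, 3 were called higher, 2 lower and 8 neither, beside 18.4% called higher and 4.64% called lower over all tested genes. The list median was 0.10 as deposited, -0.07 by median ratio and 0.71 on the epithelial scale. The 3 called higher all had a WT mean under 0.5 FPKM and passed the filter only through the Gm31629-/- mice. Tnfrsf17, also under 0.5 FPKM in WT mice, and Ell2 were higher with no overlap but under the fold threshold. Their log2 fold changes were 0.87 and 0.98 (limma adjusted p = 0.0171 and 0.00789). Tent5c, a poly(A) polymerase active in plasma cells, was at 5.05, 3.73 and 4.14 FPKM against 0.434, 0.528 and 0.524 FPKM (log2 fold change 1.82, limma adjusted p = 0.000415). Tnfrsf13b, the receptor TACI for the survival factors APRIL and BAFF, had a log2 fold change of 1.73 and Slamf7, a plasma cell surface protein, had 1.25. Xbp1, the transcription factor of the secretory program, was at 79.0, 119 and 115 FPKM against 103, 88.5 and 96.8 FPKM, with overlapping groups (limma adjusted p = 0.697). Cd38, an ectoenzyme, overlapped as well, with a log2 fold change of -0.34 (limma adjusted p = 0.275). Txndc5 and Fkbp11, protein-folding enzymes of the endoplasmic reticulum, were called lower, at -1.23 and -1.22, and neither was called lower on the epithelial scale. Leaving out WT mouse 3 left 1 lower call.

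Genes for the recruitment of IgA cells were called higher or not at all. Of 9 tested homing genes, 5 were called higher and none lower, beside 18.4% and 4.64% of all tested genes. Their median log2 fold change was 1.502. Markers of smooth muscle, follicle stroma, neutrophils and macrophages were higher in the same libraries, and their part in these values was not tested. Madcam1 is also on the follicle stroma list. Madcam1, the vessel address for gut lymphocytes, was at 10.7, 16.3 and 25.3 FPKM in Gm31629-/- mice and at 0.339, 0.773 and 0.593 FPKM in WT mice (log2 fold change 3.49, limma adjusted p = 0.000374). Cxcl12, a chemokine that retains plasma cells, had a log2 fold change of 3.28 (limma adjusted p = 0.000360). Ccl28, the epithelial chemokine that draws IgA cells to the colon, was at 25.2, 17.9 and 20.8 FPKM against 11.1, 14.0 and 6.71 FPKM, which did not overlap but fell short of the fold threshold at 0.98 (limma adjusted p = 0.0216).

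Of 11 tested genes for IgA class switching and plasma cell survival, 7 were called higher and 1 lower. Without Gm31629-/- mouse 2, 2 were called lower. Over all tested genes 18.4% were called higher and 4.64% lower. Of the 7 called higher, 6 had a WT mean under 0.5 FPKM and so passed the filter only through the Gm31629-/- mice. Among the 5 tested genes with a WT mean of at least 0.5 FPKM, 1 was called higher and 1 lower. At a mean of at least 5 FPKM Tgfb1 alone was called higher. Tgfb1, the cytokine that directs switching to IgA, was at 7.64, 25.4 and 15.4 FPKM in Gm31629-/- mice and at 2.34, 2.72 and 2.34 FPKM in WT mice (log2 fold change 2.16, limma adjusted p = 0.00422). Aldh1a1, which makes retinoic acid, fell in every Gm31629-/- mouse, from 37.4, 44.3 and 61.8 FPKM in WT mice to 13.8, 5.33 and 4.59 FPKM (log2 fold change -2.57, limma adjusted p = 0.00245). Aldh1a2, another enzyme of that step, went the other way, at 3.58, 4.79 and 1.51 FPKM in Gm31629-/- mice against 0.310, 0.245 and 0.212 FPKM (log2 fold change 1.69, limma adjusted p = 0.00479). The survival factors APRIL and BAFF were not called. Tnfsf13, which encodes APRIL, was at 1.43, 0.728 and 1.496 FPKM in Gm31629-/- mice and at 2.05, 2.95 and 2.76 FPKM in WT mice, lower with no overlap but under the fold threshold at -0.70 (limma adjusted p = 0.0300). Tnfsf13b, which encodes BAFF, had a log2 fold change of 0.46 (limma adjusted p = 0.115). Nos2, the inducible nitric oxide synthase, was at 30.5, 280 and 37.0 FPKM against 93.4, 73.5 and 73.8 FPKM and overlapped (limma adjusted p = 0.837), with mouse 2 far above the rest.

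Of 19 tested known inducers of Pigr and their receptors, 2 were called higher, none was called lower and 17 were neither. Over all tested genes 18.4% were called higher and 4.64% lower. At an adjusted p under 0.05 alone, 9 of the 19 passed, near the 43.5% of all tested genes. The median log2 fold change of the list was 0.32. On the epithelial scale 7 of 20 tested were called higher, none lower, and the list median was 0.86. On that scale 4529 of all 14937 tested genes were called higher. As deposited, 1 was called without Gm31629-/- mouse 3, without WT mouse 1 or without WT mouse 3. The 2 were Il1b and its receptor Il1r1, at log2 fold changes of 2.77 and 2.29 (limma adjusted p = 0.0117 and 0.0149). Ifngr1, a chain of the interferon gamma receptor, had a log2 fold change of 0.49 (limma adjusted p = 0.0405), under the fold threshold. Irf1, a factor that interferon induces, was at 68.0, 83.5 and 74.7 FPKM against 133, 64.6 and 79.3 FPKM and overlapped (limma adjusted p = 0.518).

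Genes that move the loaded receptor across the epithelial cell were called in both directions. Of 11 tested, 4 were called lower (Rab17, Rab25, Rab3d and Ap1m2), 2 were called higher (Rab5a and Yes1) and 5 were neither. Over all tested genes 4.64% were called lower and 18.4% higher, and the higher calls of the list were near that share. Of the 2 higher calls in the list, none was left without Gm31629-/- mouse 1 and 1 was left without WT mouse 3. Rab25, a recycling-endosome GTPase, was at 28.6, 36.0 and 51.8 FPKM in Gm31629-/- mice and at 111, 94.9 and 102 FPKM in WT mice (log2 fold change -1.42, limma adjusted p = 0.00285). Rab3d, a GTPase of secretory vesicles, was at 21.3, 20.7 and 20.7 FPKM against 60.1, 46.2 and 53.0 FPKM (log2 fold change -1.30, limma adjusted p = 0.000813). Rab17, a GTPase of polarized epithelial transcytosis, was at 10.97, 1.69 and 3.99 FPKM against 16.6, 20.8 and 20.2 FPKM (log2 fold change -1.89, limma adjusted p = 0.0191). These 3 genes did not overlap between genotypes, and the share of all tested genes lower without overlap was not computed. The list median was -0.51 as deposited and 0.07 on the epithelial scale, where Rab17 alone was called lower, so the direction of the list depended on the scaling.

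**Figure D5:**
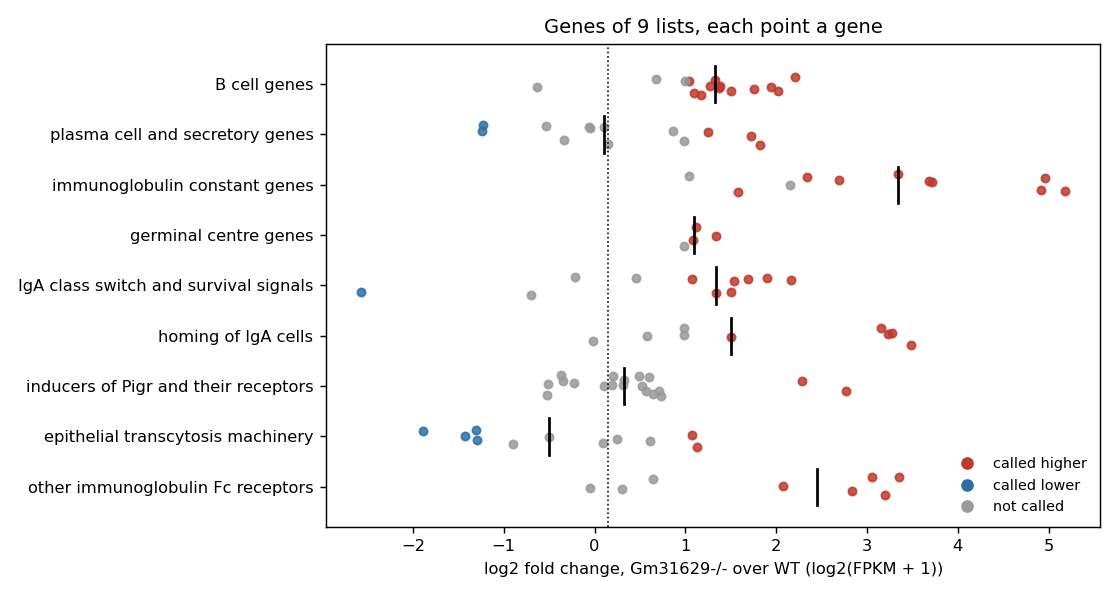
Log2 fold change of each tested gene of 9 lists, Gm31629-/- over WT, with points spread vertically only to separate them, short lines at the list median and a dotted line at the median of all tested genes (0.15). Immunoglobulin constant genes have the highest median (3.35) and epithelial transcytosis genes the lowest (-0.51, or 0.07 on the epithelial scale).

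The genes whose log2 levels ran closest to Pigr over the 6 libraries, among 7242 genes with a mean of at least 5 FPKM, were Ak3 (Pearson r = 0.999), Ppdpf (0.988), 2510039O18Rik (0.985), Evpl (0.985) and Pik3c2b (0.981). None of the 5 separated the genotypes. For Jchain they were Pla2g4f (0.998), Sval1 (0.997), Igkc (0.997), Igha (0.996) and Ighv5-9-1 (0.995). All 5 were higher in every Gm31629-/- mouse than in any WT mouse, which was so for 36.3% of all tested genes. The genes were picked for their likeness to Pigr or Jchain, so their overlap or separation follows from that choice. These correlations describe 6 libraries that share their scaling and fall into 2 genotypes.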

How the data were processed

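RNA was taken from flash-frozen colon with the OMEGA total RNA kit and made into TruSeq libraries from 1 µg of RNA. Per the labels, the authors deposited FPKM values for 27546 genes in 1 table, 1 column per sample, so fragments were already divided by gene length and depth. The submitters' processing notes name HISAT2 2.1.0, HTSeq 0.6.0 and GRCm38, and whether counting used strand is not given in the sources used here. Columns were matched to genotypes by their labels. Gm31629 itself was not analysed here, since no row carries its symbol.

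Symbols, positions and exon lengths came from GENCODE M21 (GRCm38) for 27488 genes. Fragments were estimated from FPKM, length and depth, with 96.3% to 97.2% of values up to 20 fragments within 0.1 of a whole number, and they cover counting error only. R 4.3.3 with limma 3.58.1 was used (lmFit, then eBayes with its trend option) on log2(FPKM + 1) for 14657 genes with a mean of at least 0.5 FPKM, with Benjamini-Hochberg adjustment over all of them and calls at an adjusted p under 0.05 and an absolute log2 fold change above 1. DEGseq, which the study used, needs counts. Ratios within a library were compared by an exact two-sided permutation test over 20 splits. The members and lists were chosen with earlier results of these data known. All 10 members were named, with the 2 most abundant and the 2 most changed called genes of each list, except 1 that is not reported here, and further list genes were named after their values were seen. The 15 alternatives were pseudocount 0.1, no filter, a mean of at least 5 FPKM, TPM scale, median-ratio and epithelial-marker scaling, no trend, replicate block, voom on recovered fragments and leaving out each mouse. Scripts were tested on simulated data. Chi-square per gene between replicates was 34.1 to 169, so none repeated another. Pou2af1 overlaps Gm47828 and Ms4a1 overlaps 4930526L06Rik, both at most 0.372 FPKM.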

Additional observations from a re-analysis of the deposited data

How the results depend on the processing

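Over the 15 alternatives, 7 of the 8 genes called higher (Jchain, Mzb1, Derl3, Irf4, Pou2af1, Cd79a and Cd79b) kept an adjusted p under 0.05 wherever they were tested, and all 9 B and plasma cell genes kept a positive log2 fold change. At a mean of at least 5 FPKM, 5 of the 10 genes were called higher in place of 8, because Derl3, Irf4 and Ms4a1 were no longer tested, and 21 list genes were called higher in place of 48. Over all genes that filter left 956 higher and 493 lower calls. Rescaling to epithelial markers left 2 list genes called lower (Aldh1a1 and Rab17) in place of 7 and reversed Pigr to 0.070. That scaling sets the geometric mean of the epithelial markers, not each marker, equal in every library by construction. It moved the median of all genes to 0.63. Leaving out each mouse in turn gave Pigr log2 fold changes of -0.87 to -0.24 and 7 to 8 genes called higher, and the log2 difference of Pigr to Jchain with 1 FPKM added (-4.53) ran from -4.72 to -4.29. Prdm1 had an adjusted p of 0.0516 with no filter. The replicate numbers did not pair the mice (same-number correlations of 0.04, -0.11 and 0.01). With a replicate block, 8 genes were called higher and Pigr stayed at -0.55 (limma adjusted p = 0.243). Depth limits the WT values of Derl3, Irf4 and Ms4a1, at 14 to 24 fragments per library.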

Other observations

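Several receptors for other antibody classes were higher in the Gm31629-/- mice. Of 8 tested immunoglobulin Fc receptor genes other than Pigr, 5 were called higher and none lower, beside 18.4% and 4.64% of all tested genes. Their median log2 fold change was 2.45, beside 0.15 over all tested genes. The 5 were Fcgr1, Fcgr2b, Fcgr3, Fcgr4 and Fcer1g, which myeloid cells express. All 10 markers of neutrophils and macrophages were called higher as well, with a median log2 fold change of 2.73, and their part in these values was not tested. Fcgr4, an activating IgG receptor, was at 17.0, 41.3 and 11.4 FPKM in Gm31629-/- mice and at 1.42, 0.575 and 1.36 FPKM in WT mice (log2 fold change 3.35, SE 0.44, limma adjusted p = 0.00152). Fcgr3, a low-affinity IgG receptor, and Fcer1g, the signalling chain these receptors share, had log2 fold changes of 3.20 and 2.83. In all 3 genes Gm31629-/- mouse 2 was the highest, the mouse that was lowest for 8 of the 10 IgA and plasma cell genes. The groups did not overlap for any of them. Fcgrt, the neonatal Fc receptor that carries IgG across epithelia, was at 53.6, 52.3 and 67.2 FPKM against 49.3, 67.1 and 63.2 FPKM and overlapped, with a log2 fold change of -0.05 (limma adjusted p = 0.838), or 0.56 on the epithelial scale.

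Of 4 tested germinal centre genes, 3 were called higher and none lower, beside 18.4% and 4.64% of all tested genes. The other 4 of the 8 listed genes were too low to test. Of the 4 tested, 3 had a WT mean under 0.5 FPKM and passed the filter only through the Gm31629-/- mice, which leaves Bcl6 as the call among the rest. Of the 4, 1 was called when WT mouse 1 was left out, and likewise for WT mouse 3. Bcl6, the repressor that defines germinal centre B cells and is used by other cells too, was at 2.99, 7.72 and 4.76 FPKM in Gm31629-/- mice and at 1.62, 1.74 and 1.74 FPKM in WT mice (log2 fold change 1.12, limma adjusted p = 0.0171). Rgs13, a germinal centre regulator of chemokine signalling, was at 5.19, 1.51 and 1.15 FPKM against 0.490, 0.235 and 0.129 FPKM (log2 fold change 1.34, limma adjusted p = 0.0292), with Gm31629-/- mouse 1 well above mice 2 and 3. That was the mouse with the highest share of IgG.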
